A study of Homo sapiens with 30 samples.

Results

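MYC ChIP-Seq, which recovers the DNA bound by the transcription factor MYC, was compared between 2 samples of cells expressing SNF5 and 2 samples of cells expressing EGFP, 4 of the 30 samples of the series. The cells were G401, a malignant rhabdoid tumor (MRT) cell line that lacks SNF5, the SWI/SNF subunit encoded by SMARCB1, and both groups therefore share this loss. Selected pools of cells, transduced by lentivirus with a TET-inducible EGFP or SNF5 construct, received doxycycline at 1 μg/ml over 24 h, so the control cells carried a vector and the drug too. The members are the peaks called in these 4 samples on hg19. A bound region was the union of overlapping peaks of both EGFP samples, which gave 897 regions, and it was called kept where at least 1 SNF5 sample had a peak overlapping it and lost otherwise. By this rule 128 regions were kept (14.3%, exact 95% confidence interval 12.05% to 16.73%, which covers counting error only) and 769 were lost. PRO-Seq, a nuclear run-on assay that counts active RNA polymerases on each gene, was available in 3 samples per construct and was used to read transcription at these genes.

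MYC is a transcription factor that binds DNA as a dimer with MAX. The dimer prefers the E-box CACGTG, and most of its sites lie next to transcription start sites (TSS). Its best-known target genes serve cell growth, including the making of ribosomes, tRNA charging, nucleotide synthesis and RNA processing. At such genes MYC is known for promoting the release of paused RNA polymerase II into the gene body. SNF5 contacts MYC directly, and the study asked whether SNF5 changes where MYC is found on chromatin.

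The sequences at some of the strongest kept and lost sites show what MYC bound. Each line below gives 201 bases of the hg19 (GRCh37) reference around the summit of EGFP replicate 2, on the plus strand, with every CACGTG in capitals. The 3 kept sites shown are among the strongest, by mean EGFP enrichment, of those with a peak in both SNF5 samples, and windows with more than 30 bases of annotated UTR were left out. They are not the strict top of that order, so their E-boxes say nothing of kept sites as a class.
ENSG00000286874, chr7:4681636-4681836: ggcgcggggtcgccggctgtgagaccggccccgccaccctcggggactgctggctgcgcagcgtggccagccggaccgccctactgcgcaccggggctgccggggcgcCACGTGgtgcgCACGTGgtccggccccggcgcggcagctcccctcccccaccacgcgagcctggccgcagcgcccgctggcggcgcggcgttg
MIR17HG, chr13:92001287-92001487: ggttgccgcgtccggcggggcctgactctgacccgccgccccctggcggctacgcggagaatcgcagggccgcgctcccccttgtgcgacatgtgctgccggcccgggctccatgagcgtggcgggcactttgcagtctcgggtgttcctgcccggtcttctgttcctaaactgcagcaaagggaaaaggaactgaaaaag
EIF5A, chr17:7211507-7211707: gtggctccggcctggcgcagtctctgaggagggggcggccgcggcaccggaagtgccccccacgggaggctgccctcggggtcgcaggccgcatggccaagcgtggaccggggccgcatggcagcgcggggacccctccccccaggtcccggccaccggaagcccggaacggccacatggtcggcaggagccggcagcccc
The first lies 143 bp from the start of a long noncoding RNA and had the highest enrichment of all in both EGFP samples. MIR17HG is the host gene of the miR-17-92 microRNA cluster, and EIF5A encodes a translation factor. The first window holds 2 E-boxes, while those at MIR17HG and EIF5A hold none.

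The 3 lost sites shown are among the strongest by mean EGFP enrichment, with the same limit on UTR bases, and lie near ZZZ3, CCDC88C and RALGDS. They are not the strict top of that order either, so their E-boxes say nothing of lost sites as a class.
ZZZ3, chr1:78148558-78148758: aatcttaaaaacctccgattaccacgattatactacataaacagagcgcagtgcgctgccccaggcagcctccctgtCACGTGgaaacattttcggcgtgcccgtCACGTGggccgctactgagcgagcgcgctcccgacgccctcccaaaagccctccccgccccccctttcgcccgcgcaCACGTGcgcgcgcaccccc
CCDC88C, chr14:91884415-91884615: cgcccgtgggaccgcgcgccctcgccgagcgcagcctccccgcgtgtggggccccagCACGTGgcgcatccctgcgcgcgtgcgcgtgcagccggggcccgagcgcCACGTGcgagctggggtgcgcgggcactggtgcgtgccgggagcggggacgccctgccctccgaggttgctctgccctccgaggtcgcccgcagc
RALGDS, chr9:136024798-136024998: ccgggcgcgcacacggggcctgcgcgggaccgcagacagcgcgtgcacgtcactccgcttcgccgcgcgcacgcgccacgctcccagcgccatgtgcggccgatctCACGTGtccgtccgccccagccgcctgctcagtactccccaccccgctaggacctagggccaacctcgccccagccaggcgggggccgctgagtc
ZZZ3 encodes a subunit of a histone acetyltransferase complex and RALGDS an exchange factor for Ral GTPases. These windows hold 3, 2 and 1 E-boxes. Across all bound regions 53.2% had a CACGTG within 100 bp of the summit. The hexamer reads the same on both strands, and it occurred within 100 bp of 5.94% of the 20367 transcript starts in the PRO-Seq table.

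The 2 samples of each construct differed in the number of peaks called. EGFP replicates 1 and 2 had 940 and 5396 peaks, and SNF5 replicates 1 and 2 had 137 and 27. The mean number was 38.6-fold lower with SNF5, a ratio that ran from 11.5 to 117 with each sample left out in turn. Within replicate numbers 1 and 2 the ratio was 6.86 and 199.9. An exact two-sided permutation test gave p = 0.333, the smallest that 2 samples against 2 allow. The lists hold no reads, so a lost peak is one that fell under the authors' q-value threshold of 0.01, and not a measure of how much binding was left. The study's sequencing metrics list fewer mapped reads, after removal of duplicates, for either SNF5 sample than for either EGFP sample, and identical read numbers for the EGFP and SNF5 IgG controls of the same replicate number. The part of depth in the peak numbers was not tested.

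Peaks at the gene of the introduced protein were checked as well. In PRO-Seq, SMARCB1 had 4, 1 and 6 gene body reads in the EGFP samples and 2870, 4467 and 3440 in the SNF5 samples, as the labels say. In MYC ChIP-Seq, EGFP replicate 1 had 8 peaks with summits in SMARCB1 exons, with fold enrichments of 3.43 to 9.67, and SNF5 replicate 1 had 6 (3.04 to 7.34). Neither sample of replicate 2 had one. MYC itself had peaks on exons 2 and 3 in the replicate 1 samples, with enrichments of 5.24 and 5.42 in EGFP and 5.33 and 8.56 in SNF5, and none in replicate 2. These exonic peaks were in 1 EGFP sample only, so none of them belongs to a bound region. Whether they come from chromatin bound by MYC or from cDNA or plasmid in the libraries was not tested, and their enrichments cannot be read as MYC binding.

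Kept sites came almost wholly from SNF5 replicate 1. That sample had a peak at 122 bound regions, replicate 2 had one at 22, and 16 regions had a peak in both. Of the 22 regions of replicate 2, 16 were also found in replicate 1 (72.7%, exact 95% confidence interval 49.8% to 89.3%). The 6 found in replicate 2 alone include those at RPSA and RPS19, which encode ribosomal proteins, and at FABP5, a fatty acid binding protein. With replicate 2 as the only SNF5 sample 2.45% of regions would be kept, and with a peak required in both SNF5 samples 1.78%.

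The 16 regions with a peak in both SNF5 samples lie at genes of varied function. Beside the noncoding RNA on chromosome 7, MYC enrichment was 17.6 and 28.6 with EGFP and 12.8 and 10.2 with SNF5. At PLD6, which encodes a phospholipase of the mitochondrial surface, they were 17.4 and 17.6 with EGFP and 10.7 and 5.53 with SNF5. Both SNF5 values were below both EGFP values at these 2 sites. At EIF5A the EGFP values of 14.7 and 17.1 stood beside 6.86 and 5.74, and at MIR17HG 12.1 and 21.2 stood beside 5.48 and 6.78. GTF3A, which encodes the transcription factor for the 5S ribosomal RNA gene, had 10.7 and 20.3 with EGFP and 5.90 and 5.11 with SNF5. HK2, the hexokinase of the first step of glycolysis, had 10.9 and 14.9 with EGFP and 6.49 and 5.18 with SNF5. At FAM174B they were 11.9 and 15.1 with EGFP and 10.7 and 5.93 with SNF5. The constructs overlapped at 1 of the 16 regions, that of MFSD3, with 7.48 and 17.4 with EGFP and 8.21 and 4.68 with SNF5. The remaining regions lie at ING5, a subunit of histone acetyltransferase complexes, MRPL3, a mitochondrial ribosomal protein, SNX5 and C20orf72, which share 1 region, ZNF131, BRWD1 and BRWD1-IT2, which share another, NME2, SNHG26 and SLC7A5P2. SLC7A5P2 is a pseudogene copy of an amino acid transporter gene, so reads there may be split with its parent.

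Where a peak was kept, it was weaker and narrower. The ratio of SNF5 to EGFP fold enrichment within a replicate number had a median of 0.780 over the 122 regions of replicate 1, with 103 below 1 and a range of 0.313 to 1.65. In replicate 2 the median was 0.361, with all 22 below 1. Widths were at a median of 0.535 and 0.265 of the EGFP width. The summits stayed close, with a median shift of 56 bp in replicate 1 and 19.5 bp in replicate 2. These ratios describe the peaks that were called, and each value is a ratio to local background from a call against IgG.

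**Figure D1:**
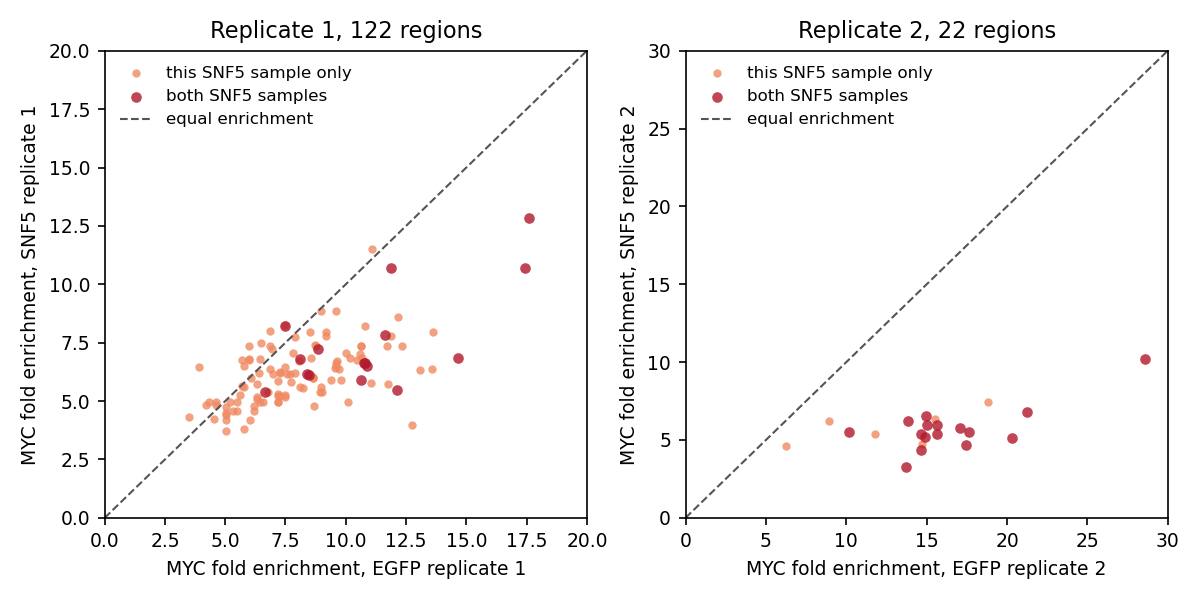
MYC fold enrichment in SNF5-expressing cells (y axis) against EGFP-expressing cells (x axis) at the bound regions with a SNF5 peak, 1 point per region, for replicate 1 (left, 122 regions) and replicate 2 (right, 22 regions). Points under the dashed line of equal enrichment are weaker with SNF5, 103 of 122 in replicate 1 and all 22 in replicate 2.

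Few SNF5 peaks lay outside the bound regions. In replicate 1 there were 15 of these, 10 at peaks of EGFP replicate 1 only, 4 at peaks of EGFP replicate 2 only and 1 at no EGFP peak. The 10 include the 6 on SMARCB1 and the pair on MYC, and the other two lie beside the microRNA genes MIR3648 and MIR3687 on chromosome 21. Of the 4, 3 were within 10 bp of a start, those of RPL35A, MTHFD1 and the noncoding RNA LINC-PINT. The fourth lay 36788 bp from the nearest start, that of ANGPTL2. In replicate 2, 1 peak matched EGFP replicate 1 only, at MIR3687, and 4 matched no EGFP peak, with enrichments of 1.45 to 2.13. The SNF5 peaks at places where neither EGFP sample had one were therefore all at or under 2.13.

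Strong MYC peaks in the EGFP control were kept more often than weak ones. Since kept means a SNF5 peak past a threshold, this order would also arise from an equal drop at all regions. It therefore does not show that strong sites respond less to SNF5. The same limit holds for the widths and q-values given below. For kept regions the median enrichment was 7.77 by EGFP replicate 1 (quartiles 6.32 and 9.66) and 10.9 by replicate 2 (8.49 and 13.8). Lost regions had 5.48 (4.89 and 6.35) and 7.99 (6.42 and 9.75). The quartiles of kept and lost regions met at about the same value in replicate 1 and overlapped in replicate 2, so enrichment ordered the regions without separating them. Of the 10 strongest regions in either EGFP sample 9 were kept, and of the 100 strongest 61 in replicate 1 and 48 in replicate 2. By quartile of EGFP replicate 1 the share kept was 3.56%, 4.44%, 10.3% and 38.8%, and by quartile of EGFP replicate 2 it was 5.78%, 7.59%, 10.7% and 33.0%. In both samples the lowest 3 quartiles lay under the confidence interval of the highest. The 16 regions with a peak in both SNF5 samples had medians of 10.8 and 15.3.

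**Figure D2:**
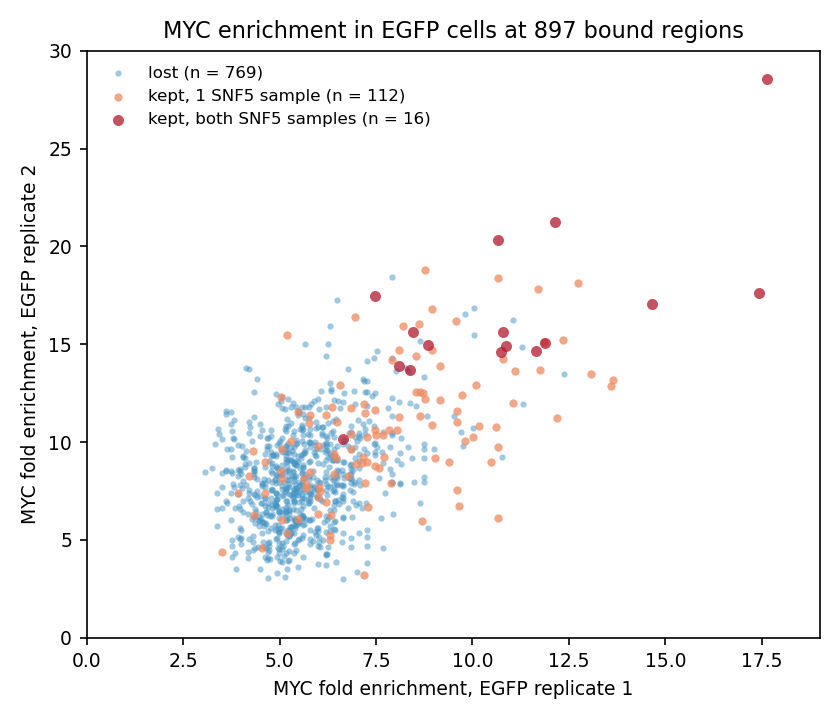
MYC fold enrichment at the 897 bound regions in EGFP replicate 1 (x axis) and EGFP replicate 2 (y axis), 1 point per region. Lost regions (blue, 769) gather at low values, regions kept in 1 SNF5 sample (orange, 112) spread upward through them, and the 16 with a peak in both SNF5 samples (red) lie at or above 6.63 in replicate 1 and 10.2 in replicate 2.

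Kept peaks were also wider and richer in E-boxes. In EGFP-expressing cells their median width was 426.5 bp in replicate 1 and 702.5 bp in replicate 2, against 254 bp and 576 bp for lost peaks. The median −log10 q was 14.9 against 6.38 in replicate 1 and 36.4 against 20.02 in replicate 2. Of the 128 kept regions 89 (69.5%) held a CACGTG in the 100 bp on either side of the summit, and of the 769 lost regions 388 (50.5%) did. The share kept was higher with more E-boxes, from 39 of 420 regions with none (9.29%, exact 95% confidence interval 6.69% to 12.5%) to 65 of 391 with 1 (16.6%, 13.1% to 20.7%) and 24 of 86 with 2 or more (27.9%, 18.8% to 38.6%). Enrichment was higher with more E-boxes too, with EGFP medians of 5.42, 5.79 and 6.22 in replicate 1 and 7.92, 8.55 and 9.42 in replicate 2. Within the highest enrichment quartile, 75.9% of kept and 65.7% of lost regions held an E-box by replicate 1, and 77.0% and 57.3% by replicate 2. In the lowest quartile of replicate 1 the order was the other way, with 12.5% of 8 kept regions and 46.1% of lost regions holding one.

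**Figure D3:**
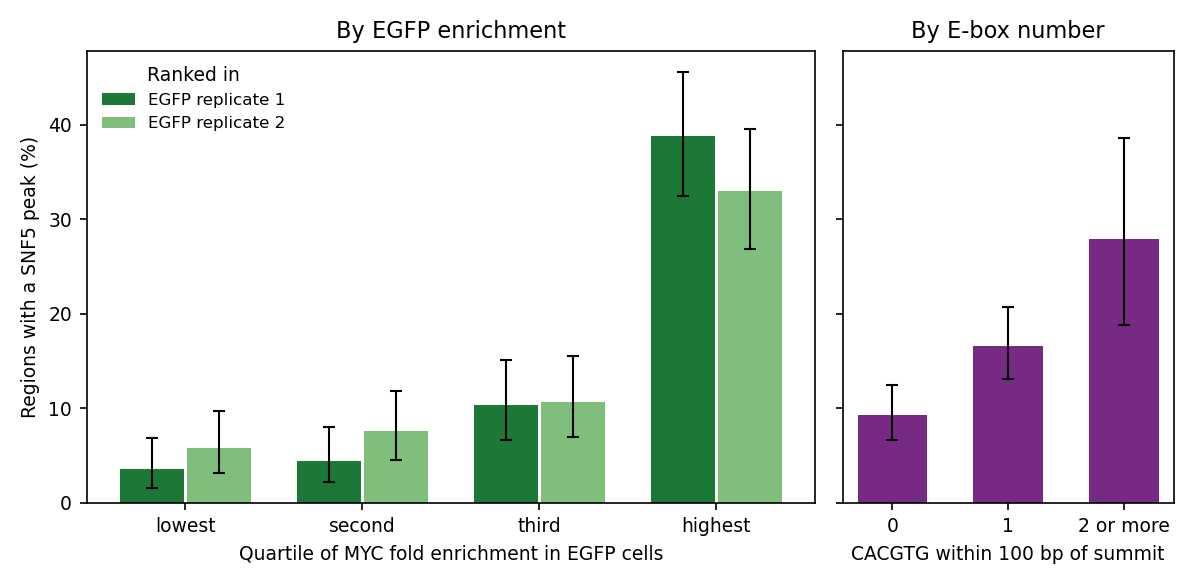
Share of bound regions with a SNF5 peak (y axis, percent) by quartile of MYC fold enrichment in each EGFP sample (left) and by the number of CACGTG within 100 bp of the summit (right). Bars start at 0 and error bars are exact 95% confidence intervals. The share reaches 38.8% and 33.0% in the highest quartiles and 27.9% with 2 or more E-boxes.

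Position and base composition set kept and lost regions apart less. The median distance from summit to the nearest annotated start was 69 bp for kept and 66 bp for lost regions, and 5.47% and 5.07% lay at least 1 kb from any start. The median G and C content within 100 bp was 68.2% and 69.7%, with a higher 74.9% in the 16 regions with a peak in both SNF5 samples. Kept regions more often served more than 1 gene, 39 of 128 (30.5%) against 169 of 769 (22.0%), and genes that share a region also share its call. The kept regions just inside the threshold for SNF5 replicate 1 were those at DANCR and LOC152578 (−log10 q of 2.08), at THNSL1 and ENKUR (2.77), at UBE2M (3.00), at ISG15 and HES4 (3.00) and at TSR1 (3.17), and for SNF5 replicate 2 those at SLC7A5P2 (2.54), which replicate 1 also held, and at FABP5 (2.69), which it did not. The lists hold no value for regions just outside the threshold.

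By distance to a start (at most 1 kb), 1009 of the 20367 genes in the PRO-Seq table were MYC-bound. Of these, 154 were kept (15.3%, exact 95% confidence interval 13.1% to 17.6%) and 855 were lost. A peak in both SNF5 samples was present at 15 genes, in replicate 1 only at 133 and in replicate 2 only at 6. Apart from PLD6, FAM174B and MFSD3, the kept gene with the highest enrichment in SNF5 replicate 1 was NME1-NME2, a readthrough of both nucleoside diphosphate kinase genes that shares reads with them (11.5 with SNF5, 11.1 and 13.7 with EGFP). It was followed by NAT10, an RNA acetyltransferase of the nucleolus (8.84 with SNF5, 8.96 and 10.9 with EGFP), NPM1, the abundant nucleolar protein nucleophosmin (8.84, 9.59 and 11.6), MAT2A, which makes the methyl donor S-adenosylmethionine (8.61, 12.2 and 11.2), CCDC86, a nucleolar protein (8.25, 7.48 and 11.7), PPRC1, a coactivator related to PGC-1 (8.21, 10.8 and 14.3), and SNRPE, a core spliceosome protein (8.01, 6.85 and 11.7). At NME1-NME2, NAT10, CCDC86 and SNRPE the SNF5 value lay near or above that of EGFP replicate 1, and below that of replicate 2. None of these had a peak in SNF5 replicate 2.

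Strong binding in EGFP-expressing cells was no guarantee of a kept peak. The lost genes with the highest mean enrichment were EARS2 and UBFD1, which share 1 region (11.0 and 16.2 in the EGFP samples), MTHFD2, an enzyme of mitochondrial one-carbon metabolism (10.0 and 16.9), SYNCRIP, an hnRNP (9.80 and 16.6), IARS, isoleucyl-tRNA synthetase (7.91 and 18.4), DHX33, an RNA helicase (11.3 and 14.9), PINX1, a telomerase inhibitor (12.4 and 13.5), and PABPC1, the cytoplasmic poly(A)-binding protein (8.63 and 15.2). MYO19 and PIGW share 1 region (10.1 and 15.5) and had too few gene body reads in PRO-Seq to be tested there. The enrichments of these lost genes exceed the kept median of 7.77 in replicate 1 and 10.9 in replicate 2, so they lie among the kept genes in strength.

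Of the genes that the study assayed singly by ChIP, SNHG15, METTL1, RPL5 and RNPS1 were kept, each by SNF5 replicate 1 alone. SNHG15, a snoRNA host gene, had 13.6 and 13.2 with EGFP and 7.97 with SNF5. METTL1, a tRNA methyltransferase, had 7.28 and 10.3 with EGFP and 6.25 with SNF5. RPL5, a ribosomal protein gene, had 8.95 and 14.7 with EGFP and 5.40 with SNF5. RNPS1, a splicing regulator, had 6.76 and 8.29 with EGFP and 5.39 with SNF5. The SNF5 value lay below both EGFP values at all 4. CCT7, a chaperonin subunit (4.52 and 6.89 with EGFP), RPS24 (6.32 and 9.91) and RPL35 (5.602 and 6.098), both ribosomal protein genes, and SMARCC1, a SWI/SNF core subunit (4.63 and 6.75), were lost. RPL10 had no bound region within 1 kb.

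By function, the groups differed in how many of their bound genes were kept, with small numbers in most. A larger share of kept than of lost genes belonged to 1 of the 20 gene lists used here, 54 of 154 (35.1%) against 201 of 855 (23.5%). Among 16 bound snoRNA host genes 8 were kept, including SNHG15, NCL, SNHG1, SNHG7, TAF1D and GAS5. Among 17 bound translation factors 6 were kept, EIF5A, EIF3B, EIF3E, EEF1A1, EEF1B2 and ABCE1. Of 16 tRNA and rRNA modification enzymes 5 were kept (DUS3L, METTL1, METTL8, NSUN2 and TRMT5), and of 15 nucleotide and one-carbon synthesis genes 4 (MTHFD1L, PAICS, PPAT and PFAS). In the largest groups 10 of 42 cytosolic ribosomal protein genes (23.8%) and 10 of 45 nucleolar ribosome biogenesis genes (22.2%) were kept, beside 15.3% of all bound genes. The nucleolar genes kept include NCL, NPM1, NAT10, POLR1B, NOLC1 and GNL3. Of 22 SR and hnRNP splicing genes 6 were kept. None of the 17 nucleoporin and karyopherin genes and none of the 11 chaperonin and heat shock genes kept a peak. Their median EGFP enrichments, 4.91 and 9.07 for the former and 5.42 and 9.20 for the latter, were below the 6.16 and 8.97 of snoRNA host genes in replicate 1 but not in replicate 2.

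Smaller groups had a single kept gene or none. Kept genes were MRPL3 among 9 mitochondrial ribosomal protein genes, YARS among 8 aminoacyl-tRNA synthetase genes, PSME3 among 8 proteasome genes, POLR1B among 7 RNA polymerase subunit genes, NDUFS1 among 7 oxidative phosphorylation genes, HK2 among 6 glycolysis genes and PBRM1 among 4 SWI/SNF subunit genes. None was kept of 3 DNA replication genes, 4 genes of the MYC, MAX and MXD network, 2 circadian E-box genes and 1 p53 target gene, PLK3.

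**Figure D4:**
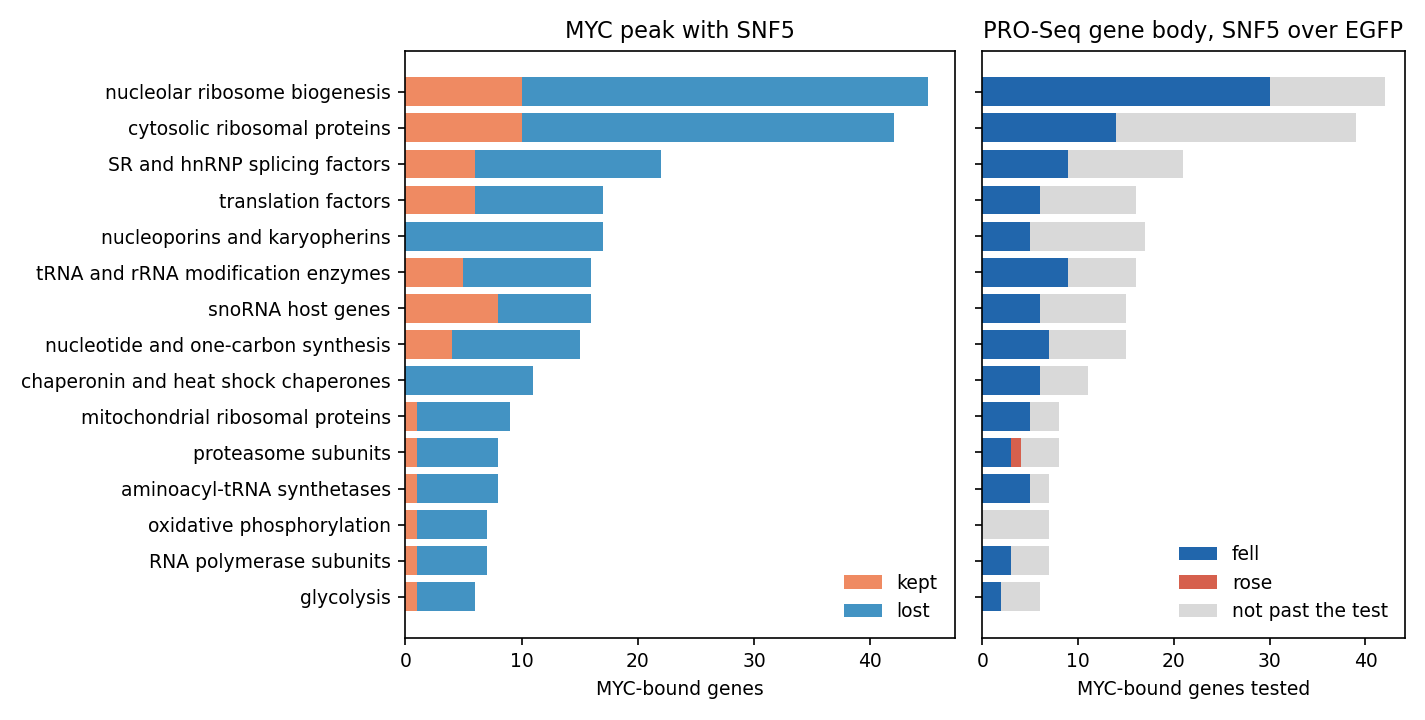
MYC-bound genes in the 15 functional lists with at least 6 bound genes. Left, number of genes with a SNF5 peak (kept, orange) and without one (lost, blue); right, number of tested bound genes whose PRO-Seq gene body counts fell (dark blue), rose (red) or did not pass the test (gray) with SNF5. Nucleolar ribosome biogenesis genes have the most bound (45) and the most that fell (30), and nucleoporins and chaperones have none kept.

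Transcription in EGFP-expressing cells was higher at kept than at lost genes. Gene body levels are given as RPKM, reads per kb of gene body scaled to library size, and promoter-proximal levels as CPM, reads scaled to library size alone. The median gene body RPKM was 3.70, 3.45 and 4.09 in the 3 EGFP samples for kept genes and 2.91, 2.65 and 2.85 for lost genes. Every kept median was above every lost median. Genes with no bound region had a median of 0.400 over the mean of the samples, against 3.87 and 2.80 for kept and lost genes. The interquartile range of kept genes (1.72 to 10.2) overlapped that of lost genes (1.52 to 5.02) in its lower part and reached further upward. Promoter-proximal levels had medians of 3.92 and 3.09 CPM, against 0.366 for genes with no bound region. Open chromatin, by ATAC-Seq peaks within 1 kb of the start, was alike, with a peak in all 3 EGFP samples at 70.4% of kept and 68.3% of lost genes, and in all 3 SNF5 samples at 85.5% and 87.0%. Among genes with no bound region those shares were 32.7% and 48.1%.

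With SNF5, polymerase over the gene body fell at kept and lost genes alike. Over all 15060 genes tested, 17.3% rose and 17.1% fell (edgeR's quasi-likelihood test with the replicate number as a block, Benjamini-Hochberg adjusted p under 0.05). Of 145 kept genes tested 67 fell (46.2%) and 1 rose, and of 806 lost genes 329 fell (40.8%) and 29 rose, so both groups had more falls and fewer rises than the background. The median log2 fold change was −0.22 for kept genes, −0.20 for lost genes and −0.02 for genes with no bound region. The kept and lost medians by replicate were −0.21 and −0.17 in replicate 1, −0.27 and −0.24 in replicate 2, and −0.18 and −0.17 in replicate 3. The kept median was lower in each, by 0.01 to 0.04, and this difference turned to 0.04 when SNF5 replicate 2 alone defined kept genes and to 0.02 when a peak in both SNF5 samples was required. The number of falls depended on the replicates in the fit, at 23, 15 and 108 kept genes and 64, 36 and 521 lost genes without replicates 1, 2 and 3. Without the block no kept or lost gene fell at the threshold, 29 kept and 134 lost genes had an unadjusted p under 0.05, and the medians were −0.22 and −0.20.

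**Figure D5:**
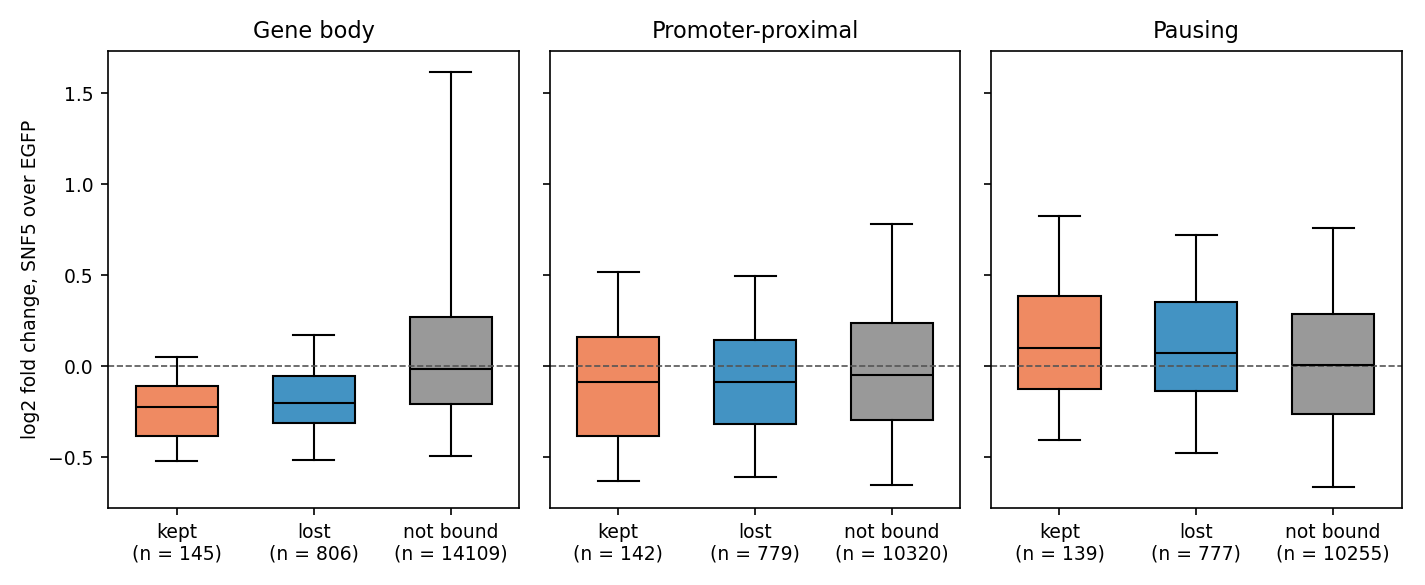
Log2 fold change of PRO-Seq counts, SNF5 over EGFP, for kept, lost and not bound genes in the gene body, the promoter-proximal region and their ratio, pausing. Boxes give the quartiles with the median, whiskers the central 90% of genes, and n the genes tested. Kept and lost gene body boxes both lie under 0, with medians of −0.22 and −0.20, while not bound genes center at −0.02.

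In quartiles of EGFP gene body level, genes with higher levels fell more often, whether kept, lost or not bound. The same EGFP samples set these quartiles and enter the change, so this order cannot be read as an effect of the level. Among genes in the highest quartile of EGFP gene body level, 51 of 99 kept genes (51.5%) and 229 of 455 lost genes (50.3%) fell, against 33.9% of genes with no bound region, and the medians were −0.25, −0.23 and −0.17. Among genes in the highest quartile of EGFP replicate 1 enrichment, 49 of 98 kept genes (50%) and 63 of 140 lost genes (45.0%) fell. Across the quartiles of enrichment the share of lost genes that fell was 36.1%, 39.4%, 44.6% and 45.0%. No test of the difference between kept and lost genes was made, since the genes are not replicates.

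Gene calls given from here on rest on all 3 replicates and the block, and of the 72 named calls 21 passed the test without replicate 2 and 2 without the block. Among the kept genes the falls include several already named. PLD6 went from 5.59, 5.36 and 6.21 RPKM in the EGFP samples to 3.35, 2.90 and 3.82 in the SNF5 samples, and the groups did not overlap (log2 fold change −0.77, standard error 0.10, adjusted p = 0.000668 by the edgeR test). EIF5A had 13.3, 21.7 and 19.9 with EGFP and 10.8, 14.6 and 12.1 with SNF5, which overlapped between replicates and were lower within each number (−0.52, adjusted p = 0.00252 by the edgeR test). GTF3A had 3.63, 3.60 and 3.47 with EGFP and 2.58, 2.54 and 2.24 with SNF5, without overlap (−0.54, adjusted p = 0.00555 by the edgeR test). ING5 (−0.25) and MFSD3 (−0.45) fell as well. FAM174B (0.14), ZNF131 (0.05), SNX5 (−0.05), C20orf72 (−0.18), BRWD1 (−0.10), MRPL3 (−0.17), SLC7A5P2 (−0.04), MIR17HG (−0.33) and HK2 (0.30) did not pass the test. So 5 of the 14 tested genes with a peak in both SNF5 samples fell (35.7%), and their median was −0.18. For all kept genes these values were 46.2% and −0.22, for lost genes 40.8% and −0.20, and 17.1% of all genes tested fell.

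The kept genes with the smallest adjusted p were PDE4A, a cyclic AMP phosphodiesterase (log2 fold change −0.60), PLD6, MYBBP1A, a nucleolar protein (−0.52), KLF16, a zinc finger transcription factor (−0.62), and AKR1A1, an aldehyde reductase (−0.47). Of the 10 kept genes with the highest enrichment in SNF5 replicate 1, PLD6 and MFSD3 fell and FAM174B (0.14) did not pass the test. The others, NME1-NME2 (−0.36), NAT10 (−0.27), NPM1 (−0.23), MAT2A (−0.36), SNRPE (−0.32), CCDC86 (−0.42) and PPRC1 (−0.35), fell. This is not a rule of strongly bound kept genes, since 49 of 98 fell in the highest quartile of EGFP replicate 1 enrichment. SNHG15 was at 39.1, 47.2 and 50.97 with EGFP and 30.7, 33.2 and 35.0 with SNF5 (−0.46, standard error 0.08, adjusted p = 0.0027 by the edgeR test), without overlap. The 1 kept gene that rose was LOC152578 (1.69), at levels of at most 0.0342 RPKM in every sample, and its peak was the weakest by q-value named above.

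Lost genes fell by similar amounts. MTHFD2 had 5.09, 6.38 and 4.56 with EGFP and 3.84, 4.12 and 3.75 with SNF5, without overlap (−0.44, standard error 0.09, adjusted p = 0.00745 by the edgeR test). IARS had 5.25, 5.21 and 4.95 with EGFP and 4.10, 3.91 and 4.13 with SNF5, also without overlap (−0.35, adjusted p = 0.0122 by the edgeR test). UBFD1 fell (−0.28), while EARS2 (−0.13), DHX33 (−0.21), PINX1 (−0.13), SYNCRIP (0.01) and PABPC1 (0.05) did not pass the test. The smallest adjusted p belonged to NEFH, a neurofilament gene (−0.85), PLK3, a stress-responsive kinase and p53 target (−0.64), EXOSC5, an RNA exosome subunit (−0.62), MTERFD1, a mitochondrial transcription factor relative (−0.48), and SLCO4A1, an organic anion transporter (−0.47). RPL35 (−0.51), CCT7 (−0.24) and SMARCC1 (−0.19) fell, and RPS24 (−0.21) did not pass the test.

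The 29 lost genes that rose were led by C1orf198, which went from 0.776, 0.790 and 0.787 RPKM with EGFP to 1.91, 2.00 and 1.45 with SNF5 (log2 fold change 1.17, standard error 0.10, adjusted p = 7.99e-05 by the edgeR test). GALNT7, a glycosyltransferase of O-linked glycans, went from 0.758, 0.815 and 0.864 to 1.60, 1.58 and 1.43 (0.92, adjusted p = 9.64e-05 by the edgeR test). Neither gene showed overlap between constructs. LOC100506990 (1.16), SMAD2, a mediator of TGF-beta signaling (0.41), and BICD1, an adaptor of dynein (0.41), also rose. All 5 had EGFP replicate 1 enrichments of 3.38 to 6.32, beside a median of 5.48 for lost regions (quartiles 4.89 and 6.35).

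By function, the nucleolar ribosome biogenesis genes gave the largest number of falls, 30 of 42 bound and tested genes with none that rose and a median of −0.33. That was 8 of 10 kept and 22 of 32 lost genes. NCL, nucleolin, had 24.3, 32.7 and 28.1 RPKM with EGFP and 19.2, 20.8 and 20.3 with SNF5, without overlap (−0.49, adjusted p = 0.00431 by the edgeR test). Of cytosolic ribosomal protein genes 14 of 39 fell (median −0.20), of tRNA and rRNA modification enzymes 9 of 16 (−0.29), of SR and hnRNP splicing genes 9 of 21 (−0.20), of nucleotide synthesis genes 7 of 15 (−0.26), of snoRNA host genes 6 of 15 (−0.26) and of translation factors 6 of 16 (−0.13). The groups with no kept gene fell too, chaperonin and heat shock genes 6 of 11 (−0.21) and nucleoporin and karyopherin genes 5 of 17 (−0.14). Of mitochondrial ribosomal protein genes 5 of 8 fell, of aminoacyl-tRNA synthetase genes 5 of 7, of RNA polymerase subunit genes 3 of 7, of proteasome genes 3 of 8 with 1 that rose, of glycolysis genes 2 of 6, and of oxidative phosphorylation genes 0 of 7. These counts are of genes past the same edgeR test, which 17.1% of all genes, 46.2% of kept and 40.8% of lost genes passed as falls. The cytosolic ribosomal protein, snoRNA host, translation factor, nucleoporin, proteasome, glycolysis and oxidative phosphorylation groups lay under both bound shares. The nucleolar group and several others lay above 1 or both. The counts moved with the replicates, to 10, 4 and 38 of the 42 nucleolar genes without replicates 1, 2 and 3. The nucleolar median was −0.36, −0.30 and −0.32 in those fits, and 41 of the 42 were below 0 in each.

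The smaller groups hold regulators of MYC and of SWI/SNF. MNT and MXD3, both partners of MAX that oppose MYC, had lost peaks and fell (−0.35 and −0.57), 2 of the 4 bound genes of that network. The other two, MXD1 (−0.20) and MGA (−0.07), also had lost peaks and did not pass the test. Of the SWI/SNF subunit genes, BRD9 and SMARCC1 had lost peaks and fell (−0.37 and −0.19), BCL7C had a lost peak and did not pass the test (−0.35), and PBRM1 kept a peak and did not pass it (0.05). POLR1B, a subunit of RNA polymerase I with a kept peak, and POLR3D, a subunit of RNA polymerase III with a lost peak, both fell (−0.44 and −0.50). LDHA, lactate dehydrogenase, had a lost peak and fell (−0.37).

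Promoter-proximal counts gave few calls at bound genes. Replicate 1 of every construct had fewer of these reads, with totals of 517821 in EGFP and 660342 in SNF5 against 2024662 to 3381189 in the other EGFP and SNF5 samples, and its part in the number of calls was not tested. Over 11241 genes, 2.62% rose and 1.67% fell by the edgeR test. Of 142 kept genes 1 rose and 1 fell, BRWD1-IT2 (log2 fold change 1.03) and ENKUR (−1.01). Of 779 lost genes 7 rose and 12 fell. With library sizes taken from the promoter-proximal counts themselves (their own RLE factors), 3 kept genes rose and 11 fell, and 12 lost genes rose and 43 fell, so the number and the balance of these calls depend on the scaling. Over all genes 61.1% of calls were rises in the first scaling and 43.6% in the second. The medians were −0.09 for kept and for lost genes and −0.05 for genes with no bound region. CENPT, a kinetochore protein gene with a lost peak, went from 0.232, 2.69 and 0.671 CPM with EGFP to 0.471, 13.2 and 2.24 with SNF5, higher within each replicate number though the constructs overlapped (1.91, standard error 0.28, adjusted p = 2.92e-05 by the edgeR test). GPHN, the scaffold protein gephyrin (1.52), LOC84856 (0.91), C15orf39 (0.97) and C12orf47 (1.20) rose as well. NUP153, a nucleoporin, went from 0.870, 15.4 and 8.62 to 0.669, 8.19 and 3.57, lower within each number (−0.94, adjusted p = 0.0123 by the edgeR test). ANP32A (−0.88), RMI1, part of the BLM helicase complex (−0.84), KREMEN2 (−0.85), PDHB, a pyruvate dehydrogenase subunit (−0.90), and POLR3D (−0.80) also fell. Without replicates 1, 2 and 3 the calls were 17, 0 and 5 among kept genes and 70, 1 and 17 among lost genes, and without the block there were 0 of either, none of which had an unadjusted p under 0.05.

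Pausing, the promoter-proximal count relative to the gene body count, also gave few calls, and its direction differed between replicates. Of 11171 genes tested, 2.02% rose and 1.64% fell (edgeR's test of the interaction of region and construct). The median log2 change was 0.10 for 139 kept genes, 0.08 for 777 lost genes and 0.01 for genes with no bound region. By replicate the kept and lost medians were 0.22 and 0.20, 0.15 and 0.15, and −0.04 and −0.06, beside 0.14, 0.03 and −0.13 for genes with no bound region, so the third replicate lay below 0. Of the kept genes 4 rose and none fell, and of the lost genes 25 rose (3.22%) and 7 fell (0.901%). The 4 kept genes were GAS5, a snoRNA host gene (0.98, standard error 0.22), G6PC3, a glucose-6-phosphatase (0.96), SNHG7, another snoRNA host gene (0.76), and EEF1A1, the main elongation factor of translation (0.73). At GAS5 the promoter-proximal levels were 17.0, 251.8 and 95.2 CPM with EGFP and 17.4, 670.1 and 206.4 with SNF5, nearly equal in replicate 1 and higher with SNF5 in replicates 2 and 3. The lost genes that rose include IARS (0.91), PLK3 (1.06), CENPT (1.498) and GPHN (1.52), the nucleolar protein gene FBL (0.79), the splicing factor gene SRSF2 (0.83) and the amino acid transporter gene SLC7A5 (0.97). Those that fell include GALNT7 (−0.98), NUP153 (−0.82), PDHB (−0.89), ABCC4 (−1.29), GOLIM4 (−1.27), VMP1 (−0.84) and FANCC (−1.07). Without replicate 2 no kept or lost gene passed the test, and without replicates 1 and 3 there were 8 and 7 kept and 52 and 28 lost genes. Without the block none did, and none had an unadjusted p under 0.05.

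OmoMYC, a MYC mutant used in the same cells as an inhibitor, shares its EGFP samples with the SNF5 comparison, and its values are given beside those of SNF5 as a description. With OmoMYC, 41 of 145 kept genes (28.3%) and 135 of 806 lost genes (16.7%) fell in the gene body, against 4.51% of all genes tested, with medians of −0.20 and −0.13. Pausing rose at 21 of 139 kept genes (15.1%) and 46 of 777 lost genes (5.92%), against 2.17% of all genes. Whether kept and lost genes differ more with OmoMYC than with SNF5 was not tested. The MYC ChIP-Seq lists of OmoMYC hold 1 placeholder line each and were not used.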

How the data were processed

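MYC ChIP-Seq peak lists of 2 SNF5 and 2 EGFP samples and PRO-Seq counts of 9 samples were used. Per the labels and the study's methods the authors aligned ChIP-Seq reads to hg19 with Bowtie2, removed duplicates and called peaks per sample with MACS2 against IgG, keeping those at a q-value under 0.01. Each deposited list gives fold enrichment (a ratio to local background), −log10 p and −log10 q, and no reads. The authors' deposited PRO-Seq tables hold raw counts per transcript on hg19. One is for the densest 50 bp window within 500 bp on either side of the start (promoter-proximal), and one for the gene body from 1 kb onward. The density columns (signal) that the authors derived from these counts were deposited beside them. They gave the gene body RPKM levels and were not used in the tests. ATAC-Seq peaks (hg38, MACS2) served for accessibility only. The peak lists of OMOMYC were not used. Some items are not reported here.

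The members and gene lists were chosen with earlier results of these data known. Peaks overlapping by at least 1 bp in both EGFP samples were merged into bound regions, and a region was assigned to every gene with a GENCODE transcript start within 1 kb of an EGFP summit (19699 of 20367 symbols matched). The named genes were those with the strongest enrichment or the smallest adjusted p in each class, the genes the study assayed singly, and members of the lists. One transcript per gene, that with the highest mean gene body count, was tested with edgeR 4.0.16 (R 4.3.3) by the quasi-likelihood test, on genes with a mean of at least 10 counts, with gene body totals and RLE factors as library size for both regions, and with Benjamini-Hochberg adjustment at 0.05. All 9 samples entered the fit. Gene body totals were 28388012 to 46859674. The study describes the ChIP-Seq and PRO-Seq replicates as independent experiments. The replicate number was a block, since deviations from construct means correlated at 0.752 to 0.881 (gene body) and 0.689 to 0.849 (promoter-proximal) between samples of the same number, and at most 0.124 between others. Promoter sequence was read from the GRCh37 reference with pysam 0.24.0. Exact intervals and permutation tests used scipy 1.17.1. The fit was tested on simulated counts. Alternatives were DESeq2 1.42.0, TMM factors, other scaling, filters and overlaps, stricter q-values, no block, and each replicate left out.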

Additional observations from a re-analysis of the deposited data

How the results depend on the processing

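The results kept their direction in most settings. The exceptions concern how kept genes were defined, which PRO-Seq samples were fitted, the filter on counts and the use of DESeq2. The share of regions kept was 11.7% with a reciprocal overlap of 50%, 2.45% without EGFP replicate 1 or without SNF5 replicate 1, and 1.78% with a peak in both SNF5 samples. The share of genes kept was 12.5%, 3.03%, 2.08% and 1.49% in the same order. The kept minus lost difference in median enrichment was 2.80 (overlap) and 5.17 (both) in EGFP replicate 1, with 2.05 to 3.21 when 1 sample was left out, and 7.102 (both) in EGFP replicate 2, with 2.76 to 6.80 when 1 sample was left out (5.58 without EGFP replicate 1). The width ratio was 1.19 (overlap) and 2.17 (both) in replicate 1 and 1.22 to 2.00 in replicate 2 when 1 sample was left out, the highest without EGFP replicate 1. CACGTG was at 56.8% (overlap), 25% to 52.7% (1 sample left out, the lowest without EGFP replicate 1), 39.01% (50 bp) and 57.2% (200 bp) of lost regions, and 57.0% (50 bp) of kept regions. The kept over lost ratio of PRO-Seq level was 1.20 (overlap), 1.23 (−log10 q of at least 5), 1.75 (without EGFP replicate 1), 1.19 (without SNF5 replicate 1), 1.213 (both), 1.47 (nearest gene) and 1.27 (promoter-proximal).

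The kept minus lost gene body difference was −0.091 without EGFP replicate 1 and reversed to 0.0421 without SNF5 replicate 1 and 0.0243 with both SNF5 peaks required. Kept genes that fell were 25% to 48.2% with 1 ChIP-Seq sample left out, the lowest without SNF5 replicate 1, and 35.7% with both required, and lost genes that fell 29.04% (without EGFP replicate 1) to 42%. With the 6 SNF5 and EGFP samples 1666 genes fell. Without the replicate block, gene body calls were 216 up and 7 down over all genes, 0 down among kept genes, and 3 up and 0 down among lost genes, while promoter-proximal and pausing calls were 0 (48 and 9 genes at an unadjusted p under 0.05), and the pausing difference was 0.0482. Leaving out 1 replicate gave 1106 to 3765 rises and 317 to 4827 falls over all genes, 0 to 4 rises and 15 to 108 falls at kept genes, and 14 to 55 rises and 36 to 521 falls at lost genes. Promoter-proximal calls over all, kept and lost genes were 312, 1 and 15 (DESeq2), 1041, 14 and 55 (own RLE factors, with 43.6% of calls rising against 61.1%), 807, 9 and 27 (no filter), 1 kept with 6 samples, and 47 to 1001, 0 to 17 and 1 to 70 with a replicate left out. Their kept minus lost difference reversed to 0.0032 (DESeq2), 0.005796 (no filter), 0.0011 (6 samples) and 0.0201 (without replicate 2), and lay between −0.0666 and 0.0201 with a replicate left out. Pausing calls were 101, 1 and 9 (DESeq2), 789, 11 and 61 (own RLE factors), 176, 2 and 15 (6 samples), and 4 to 620, 0 to 8 and 0 to 52 with a replicate left out. The pausing difference was 0.0502 with no filter and −0.0183 to 0.0326 with a replicate left out, reversed without replicate 3. Among named genes that did not pass the test, the gene body change altered sign with a replicate left out for SYNCRIP (−0.0445 to 0.091), PBRM1 (−0.0492 to 0.126), SLC7A5P2 (−0.12 to 0.0249), SNX5 (−0.119 to 0.00598) and ZNF131 (−0.00807 to 0.115). The cause of these changes was not tested. Of the 72 named gene calls, 52, 21 and 61 still passed the test without replicates 1, 2 and 3, 56 with DESeq2, 58 with the 6 samples and 2 without the block.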
